A study of Homo sapiens with 16 samples.

Results

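The transcripts of each gene were compared, as parts of that gene's whole, between progenitors held in the actin-depolymerising drug latrunculin B for 24 h and the same kind of progenitors harvested at 0 h. For each gene, the abundance of every annotated transcript was divided by the abundance of all its transcripts, so that the values below are shares in percent and not levels of the gene. Abundance was in TPM (each library's transcripts scaled to a fixed total), which corrects for transcript length and library depth. Genes entered where their transcripts summed to at least 5 TPM in all 6 libraries and where at least 2 transcripts were annotated, which left 9481 of 35810 genes. These genes held 97297 transcripts, with a median of 8 per gene, and the leading transcript took a median of 58.1% of its gene at 0 h. A further 551 genes passed the TPM limit with 1 transcript and have no share to compare. The limit fell between NIN, lowest at 5.005 TPM, TMEM72 at 5.003 and TRMT61A at 5.001 on the inside, and POP1 at 4.995, STAT4 at 4.992 and BCLAF3 at 4.992 on the outside.

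The cells were the human embryonic stem cell line SA121 carrying an NGN3-GFP reporter, differentiated to pancreatic progenitors up to day 19, and poly(A) RNA was sequenced in 16 libraries. The drug groups received 0.5 µM latrunculin B for 3 h (3 libraries), 6 h (3), 12 h (2) or 24 h (3), and the comparison below is the 24 h drug group against the 0 h control group (3). A second control group of 2 libraries was harvested after 24 h in the solvent DMSO. The 0 h libraries carry a DMSO treatment tag, while the series text describes them as taken before treatment, so the 0 h group may have had no solvent. All groups share 1 line and its reporter. Nothing in the labels says that replicates were separate differentiations, so p-values measure the spread between these libraries, which may be technical. Libraries held 23609727 to 33515398 estimated reads. Mean fragment length, taken from the gap between annotated and effective transcript lengths, was 386.0, 418.0 and 395.3 bases in the 0 h libraries, 354.1, 383.5 and 367.6 in the 24 h drug libraries, and 374.7 and 379.2 in the 24 h control libraries. Fragments were therefore shorter in every drug library than in any 0 h library.

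Of 10 progenitor markers, 9 were at 1 TPM or more in all 6 libraries, and the sum of the list was 1736 to 1773 TPM at 0 h and 1662 to 1761 TPM after 24 h of drug, with PTF1A at 0.927 TPM or less. The 9 endocrine markers summed to 58.64 to 73.04 TPM at 0 h and 136.9 to 493.8 TPM after 24 h of drug, with NEUROG3, the endocrine-inducing factor, at 0.388 to 1.20 against 22.6 to 50.2 TPM. The largest of these markers was SST, at 38.79 to 47.96 against 68.52 to 312.4 TPM. The 4 stem cell markers summed to 173.6 to 187.4 against 107.8 to 114.9 TPM, nearly all of it LIN28A, since NANOG reached no more than 0.265 TPM. The 4 hepatocyte markers summed to 826 to 1029 against 683.6 to 1342 TPM, and the 5 mesenchyme markers to 45.36 to 79.88 against 44.04 to 68.35 TPM. The 4 neural markers summed to 211.6 to 227.7 against 239.8 to 273 TPM, nearly all of it TUBB3. The other neural markers, SOX1, PAX3 and ELAVL3, were at 0.07765 TPM or less. The 3 endothelial markers summed to 2.078 to 2.958 against 1.003 to 4.745 TPM, most of it KDR. The endocrine markers thus moved with the groups, and their part in the shares below was not tested. In these bulk libraries a share can move because cells of another type, with other isoforms, became more or fewer, or because splicing moved within cells, and these cannot be told apart.

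Most human genes produce several transcripts through alternative first exons, alternative ends and exons that are kept or skipped during splicing. A skipped or kept exon whose length is a multiple of 3 adds or removes amino acids without moving the reading frame, and very short exons of this kind are common in genes of the cytoskeleton and of membrane traffic. Retained-intron transcripts keep an intron in the mature RNA and are annotated as not making a protein, and several splicing regulators are known to hold such transcripts in the nucleus and to splice them on demand. Actin filaments, which latrunculin B takes apart by binding actin monomers, are crosslinked and moved by spectrins, myosins and tropomyosins, several of which are themselves made in alternative forms.

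The 7 exons below are those of cytoskeletal, adhesion and vesicle genes on which the results turn, and they are shown so that the stretch of coding sequence that moved can be read. All come from the hg38 (GRCh38) reference sequence, 5′ to 3′ on the strand of the gene, with coding exon bases in capitals and 12 flanking intron bases in lower case on each side. For ITGA6 the capitals stop at the stop codon inside the exon, and no bases after it are shown. The SPTAN1, MYO6 and ITGA6 exons are measured with transcripts whose length in the deposited values differs from the annotation that defines the exon.
EXOC7, chr17:76090329-76090397, minus strand, 69 bases: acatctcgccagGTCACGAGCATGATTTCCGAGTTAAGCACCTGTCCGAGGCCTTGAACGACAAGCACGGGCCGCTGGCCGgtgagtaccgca
APP, chr21:25997360-25997416, minus strand, 57 bases: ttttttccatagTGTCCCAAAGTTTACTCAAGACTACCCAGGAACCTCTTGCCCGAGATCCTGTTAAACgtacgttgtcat
SEC31A, chr4:82862534-82862572, minus strand, 39 bases: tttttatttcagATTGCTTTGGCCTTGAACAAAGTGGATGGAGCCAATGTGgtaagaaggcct
SPTAN1, chr9:128609651-128609665, plus strand, 15 bases: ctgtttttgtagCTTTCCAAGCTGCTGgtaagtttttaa
MYO6, chr6:75911672-75911698, plus strand, 27 bases: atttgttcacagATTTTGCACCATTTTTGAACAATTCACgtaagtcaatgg
MYH10, chr17:8576643-8576669, minus strand, 27 bases: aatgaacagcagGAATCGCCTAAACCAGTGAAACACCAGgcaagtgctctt
ITGA6, chr2:172501772-172501901, plus strand, 130 bases of which 108 coding: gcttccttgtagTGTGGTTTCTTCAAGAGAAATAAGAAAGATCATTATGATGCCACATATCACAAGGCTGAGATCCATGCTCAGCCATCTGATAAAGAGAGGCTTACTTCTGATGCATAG

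Isoform shares moved in a small fraction of genes after 24 h of drug, and the genes that moved included regulators of splicing, the exocyst subunit EXOC7, spectrin SPTAN1 and integrin ITGA6. A transcript was tested where its mean share over the 6 libraries lay between 5 and 95%, which gave 30557 transcripts in 8708 genes. It was called where the log2 odds of its share against the rest of its gene, fitted by limma over all 16 libraries, differed at an adjusted p under 0.05 and where the mean share differed by at least 10 percentage points. By that rule 343 transcripts (1.12% of those tested) were called, 208 with a higher share (0.681%) and 135 with a lower share (0.442%), in 287 genes (3.3%). Without the limit of 10 points, 627 transcripts (2.05%) had an adjusted p under 0.05, and 5182 had an unadjusted p under 0.05. The median absolute difference over all tested transcripts was 3.29 points, and 3211 transcripts differed by 10 points or more. The 3 values of each group did not overlap for 6919 transcripts (22.6%), among them all 343 called. When only the 6 libraries compared were fitted, 79 transcripts were called, and when fragment length was added to the fit as a covariate, 12 were called. All 343 kept their sign with that covariate, and their log2 odds were a median of 0.919 times the values without it. The 343 had been chosen by their difference in these same libraries, so a kept sign was likely beforehand. Fragment lengths of the groups compared did not overlap, so fragment length and drug cannot be told apart in this comparison. The fragment lengths of the 24 h control libraries lay within the range of the 24 h drug libraries.

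The 24 h control libraries had spent the same time in culture as the drug libraries. Against them, 230 transcripts (0.753%) were called after 24 h of drug, 147 higher (0.481%) and 83 lower (0.272%), in 194 genes (2.23%). Between the 24 h control and the 0 h control, 4 transcripts (0.0131%) were called by limma, with 1510 at an unadjusted p under 0.05. The comparisons share control or drug libraries, and the vehicle group holds only 2 libraries. Without the first 24 h control library, the 230 fell to 38.

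Single exons were then compared. An exon was taken as a cassette exon where some transcripts of the gene hold it and others join its neighbours directly, and inclusion is the TPM of the former as a percentage of both. Of 7614 exons tested in 4516 genes, 92 (1.21%) were called, 34 with higher inclusion (0.447%) and 58 with lower inclusion (0.762%), in 86 genes (1.9%). Without the limit of 10 points 141 exons (1.85%) passed, and the groups did not overlap for 1586 exons (20.8%). Against the 24 h control, 54 exons (0.709%) were called, and 1 exon (0.0131%) was called between the 24 h and 0 h controls. Called exons had a median length of 107 bases against 108 for all tested, and 7 of 291 tested exons of at most 30 bases were called. Among coding exons, 29 of the 39 called with lower inclusion (74.4%) and 9 of the 20 called with higher inclusion (45%) had a length divisible by 3, against 53.3% of those tested.

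EXOC7, a subunit of the exocyst complex that tethers secretory vesicles to the plasma membrane, kept its exon 7 (of 19 in ENST00000411744) more often after 24 h of drug. Inclusion was 10.2, 8.29 and 8.84% in the 0 h libraries and 39.1, 33.3 and 34.9% in the 24 h drug libraries. All 3 drug libraries lay far above the 0 h libraries, and the 24 h control libraries, at 9.93 and 10.1%, lay within the 0 h range. The mean rose from 9.1% ± 0.971 to 35.8% ± 3.02 (SD, n = 3 each), a difference of 26.7 points and of 2.36 ± 0.20 (SE) in log2 odds (limma adjusted p = 5.07e-05). Mean inclusion was 14.3% at 3 h, 27.5% at 6 h and 27.2% at 12 h of drug. The transcripts of this event held 54.4% of EXOC7 TPM. Of its whole transcripts, ENST00000411744, which holds the exon, rose from 4.98, 4.07 and 4.33% to 12.7, 13.8 and 17.6% of the gene (adjusted p = 0.00832, and 0.0324 against the 24 h control, at 9.62 points), and ENST00000332065, which lacks it, fell from 42.2, 31.5 and 33.0% to 18.2, 20.3 and 24.2% (adjusted p = 0.0185, and 0.0712 against the 24 h control). EXOC1, another exocyst subunit, had its transcript ENST00000381295 rise from 35.7, 37.9 and 46.1% to 57.1, 62.3 and 63.0% (adjusted p = 0.0206, and 0.0202 against the 24 h control), with no overlap, a call that was lost in 4 of 6 fits with 1 library left out, at 18.8 points without the first 0 h library, 19.9 without the second, 20.2 without the second drug library and 19.8 without the third.

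**Figure D1:**
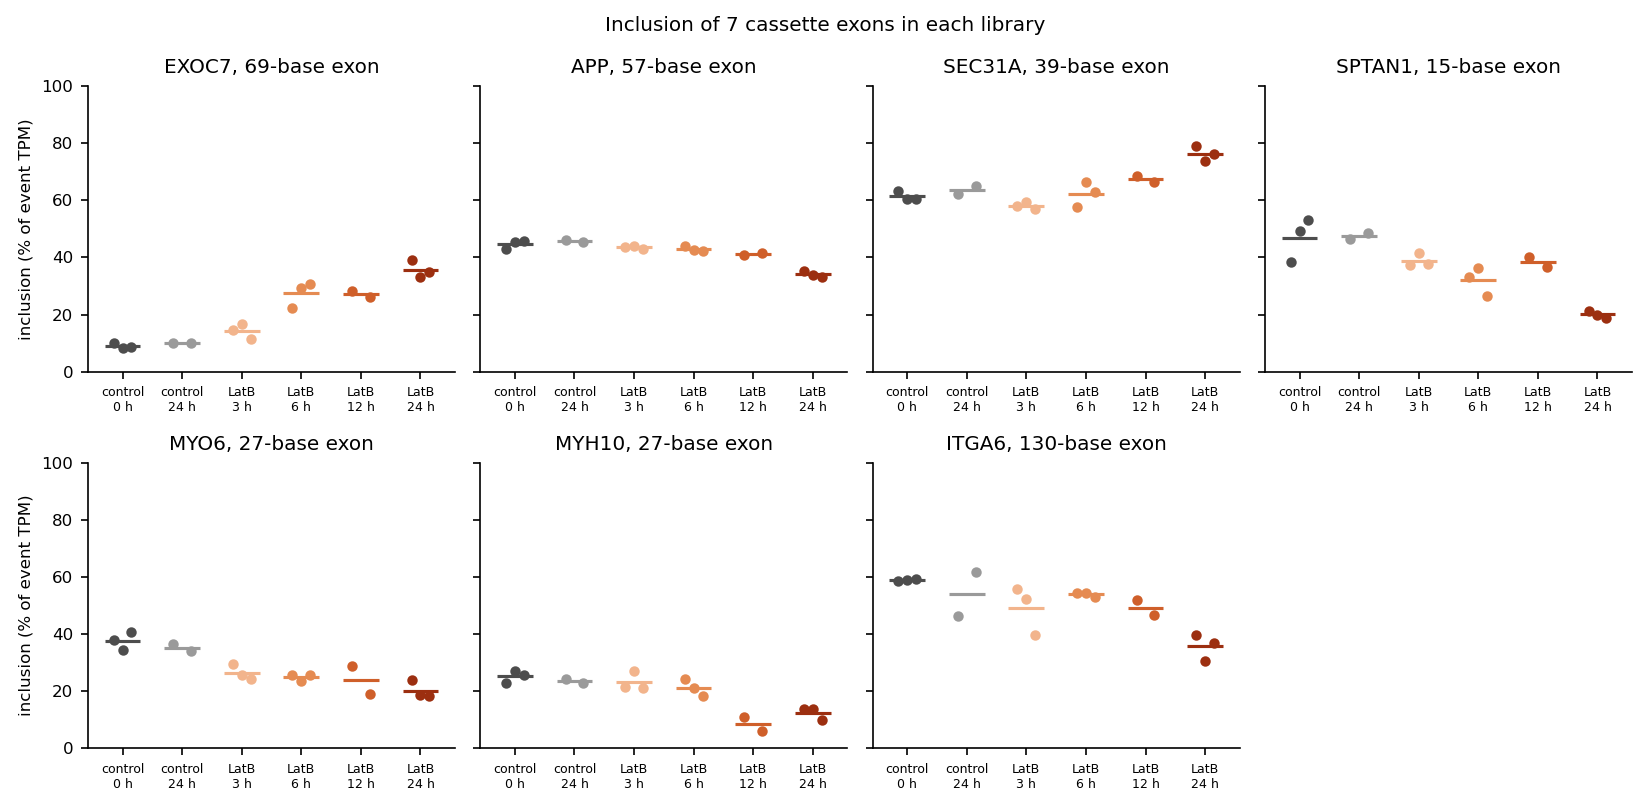
Inclusion of named cassette exons, in percent of the TPM of transcripts with and without the exon, in every library at 0 h, in the 24 h control and at 3, 6, 12 and 24 h of latrunculin B. Each point is 1 library and each horizontal line is a group mean. EXOC7 inclusion sits between 8.29 and 10.2% at 0 h and between 33.3 and 39.1% after 24 h of drug, and SPTAN1 inclusion between 38.3 and 53.0% and between 19.0 and 21.4%.

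SPTAN1, the non-erythroid alpha spectrin of the membrane skeleton, kept a 15-base exon less often after 24 h of drug. Inclusion was 38.3, 49.4 and 53.0% at 0 h and 21.4, 19.9 and 19.0% after 24 h of drug. Every drug library was below every control library, the 24 h control ones included, which were at 46.4 and 48.4%. The mean fell from 46.9% ± 7.65 to 20.1% ± 1.24 (SD, n = 3 each), or by 26.8 points (adjusted p = 0.000892, and 0.00274 against the 24 h control). After 3, 6 and 12 h of drug the means were 38.9, 31.98 and 38.5%, so the lowest level was seen at 24 h. The event covered 58.6% of SPTAN1 TPM. Of its whole transcripts, ENST00000372739, which holds the exon, fell from 22.5, 24.9 and 24.0% to 8.13, 8.67 and 11.4% of the gene (limma adjusted p = 0.0206). The 24 h controls were already at 13.9 and 14.9% for this transcript. The difference from them was -4.97 points and was not called (limma adjusted p = 0.378).

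ITGA6, the alpha chain of laminin-binding integrins, has a 130-base exon whose coding part ends in a stop codon and which therefore sets the cytoplasmic tail. Its inclusion was 58.6, 58.8 and 59.3% at 0 h and 39.5, 30.5 and 36.9% after 24 h of drug. The groups did not overlap, but the 24 h control libraries, at 46.1 and 61.7%, were spread more widely than the 0 h libraries. The mean fell by 23.3 points (adjusted p = 0.0162), which was not past the threshold against the 24 h control (18.3 points, adjusted p = 0.0933) nor without the second 0 h library (23.3 points), the third 0 h library (23.1) or the second drug library (20.7). ITGA6-201 (ENST00000264107), with the exon, fell from 55.2, 54.1 and 56.8% to 38.6, 29.2 and 35.3% of the gene (adjusted p = 0.0382), a call that was lost when any 1 of the 6 libraries was left out, at 18.4 to 23.1 points. ITGA6-202 (ENST00000409080), without it, rose from 37.0, 32.7 and 34.2% to 53.9, 57.0 and 53.4% (adjusted p = 0.0193, and 0.0431 against the 24 h control), and so became the leading ITGA6 transcript.

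Exons of 3 myosin genes were also kept less often. MYH10, the heavy chain of non-muscle myosin IIB, had its 27-base exon at 23.01, 27.2 and 25.7% at 0 h and at 13.7, 13.6 and 9.77% after 24 h of drug (adjusted p = 0.022, and 0.0761 against the 24 h control). No drug library reached the 0 h range, and the call was lost without 0 h library 2 (11.98 points), 0 h library 3 (12.73) or drug library 3 (11.62). MYO6, a myosin that walks toward the minus end of actin filaments and works in endocytosis, had a 27-base exon at 37.9, 34.2 and 40.6% at 0 h and at 23.8, 18.6 and 18.2% after 24 h of drug. The groups did not overlap (adjusted p = 0.00957, and 0.0433 against the 24 h control, which was at 36.4 and 33.97%). MYL6, a myosin light chain, had a 36-base exon at 86.3, 97.9 and 96.2% against 67.3, 69.9 and 73.6% (adjusted p = 0.0161, and 0.0878 against the 24 h control), in an event that held only 4.32% of MYL6 TPM, in which the exon shares an edge with 4 longer annotated exons, and whose call was lost without the third 0 h library (21.8 points) or the first or second drug library (21.73 and 23.03 points).

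TPM1, a tropomyosin that coats actin filaments, is made from alternative starts. TPM1-208 (ENST00000404484), which begins at the later start, was at 6.25, 2.21 and 4.33% of the gene at 0 h and at 14.2, 18.1 and 14.5% after 24 h of drug. Every drug library was above every control library, and the 24 h controls were at 1.14 and 2.88%. The mean rose from 4.26% ± 2.02 to 15.6% ± 2.12 (SD, n = 3 each; adjusted p = 0.0127, and 0.00434 against the 24 h control), and it was already 15.1% at 6 h. With all 10 transcripts of that start joined, their share went from 13.7 to 31.9% (adjusted p = 0.00708), and that of the 18 transcripts from the first start went from 79.1 to 63.7% (adjusted p = 0.0168). Its tested internal exon with the largest difference was not called (9.16 points lower, adjusted p = 0.22). Gene TPM1 itself went from a mean of 512.7 to 253 TPM.

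Over the list of 74 genes of the actin cytoskeleton and adhesion, 67 had a tested transcript and 5, ITGA6, RAC1, SPTAN1 and TPM1 among them, had a called one (7.46% against 3.3% of all tested genes). Of 129 exons tested in the list, 7 were called (5.43%, against 1.21% of all tested exons), 1 higher and 6 lower. The median absolute difference of the list's transcripts was 2.28 points, below the 3.29 points of all. RAC1, the small GTPase of actin remodelling, is named with its values outside the naming rule: ENST00000348035 was at 70.1, 70.6 and 70.3% at 0 h and at 79.7, 80.8 and 80.8% after drug (adjusted p = 0.00105). Its replicates lay close together in both groups, and the difference from the 24 h control was 8.39 points (adjusted p = 0.00497). ITGA3 was not called (3.47 points lower, adjusted p = 0.866), and CD44 was not among the genes compared. In the 30-gene junction and polarity list, 3 of 26 tested genes were called (11.5%): EXOC7, EXOC1 and CTNND1. CTNND1, the adhesion protein p120 catenin, had ENST00000526772 at 4.35, 1.86 and 3.33% against 14.5, 9.11 and 16.1% (adjusted p = 0.0063, and 0.309 against the 24 h control, which was at 6.75 and 8.86%). That CTNND1 call was lost without the second 0 h library (9.41 points), the first drug library (9.44) or the third (8.62). NUMB, an endocytic adaptor and Notch inhibitor, had a 144-base exon at 28.0, 40.4 and 34.2% against 48.5, 51.1 and 51.8%, which did not pass (adjusted p = 0.0528).

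**Figure D2:**
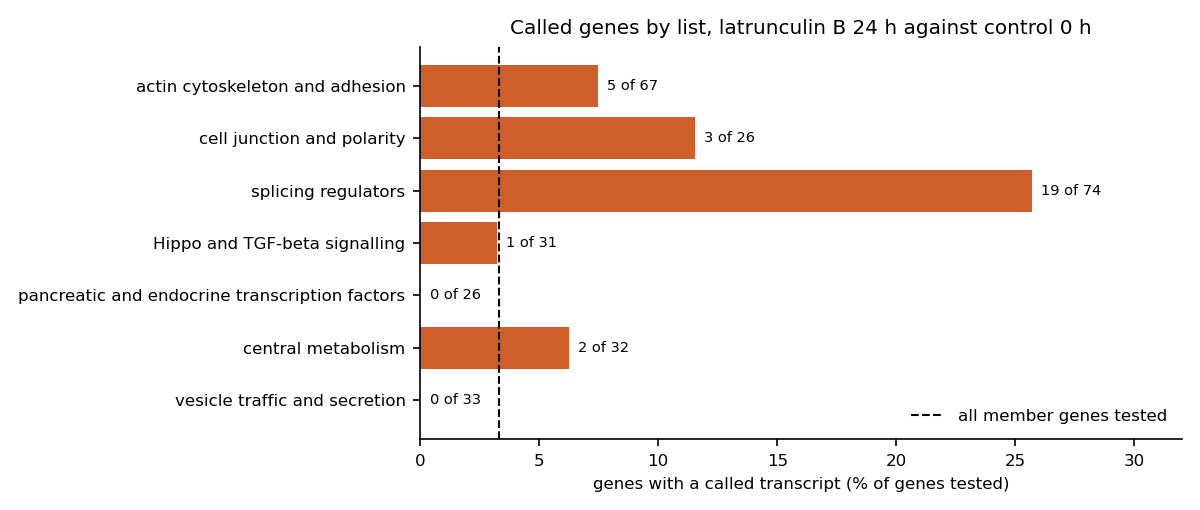
Percent of tested genes in each list with a called transcript after 24 h of latrunculin B against 0 h, as bars starting at 0, with the called and tested genes beside each bar. The dashed line is the 3.3% of all 8708 tested genes, and splicing regulators stand at 25.7%.

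Vesicle genes were represented by exons rather than by whole transcripts. In the 39-gene list of vesicle traffic and secretion, none of 33 tested genes had a called transcript by limma (2 transcripts had an adjusted p under 0.05, below 10 points), but 3 of 79 tested exons were called (3.8%, against 1.21% of all tested exons), in APP, MYO6 and SEC31A. APP, the amyloid precursor protein, lost a 57-base exon, its exon 8 of 18, from part of its transcripts: inclusion was 42.8, 45.4 and 45.9% at 0 h and 35.4, 33.9 and 33.1% after 24 h of drug. The 24 h control libraries, at 46.0 and 45.3%, lay with the 0 h libraries, and all 3 drug libraries lay below them. The mean fell from 44.7% ± 1.63 to 34.1% ± 1.16 (SD, n = 3 each), which is 10.6 points and -0.64 ± 0.05 (SE) in log2 odds (adjusted p = 5.07e-05, and 0.000188 against the 24 h control). The event covered 99.3% of APP TPM, and the means after 3, 6 and 12 h of drug were 43.5, 43.0 and 41.2%, so that the difference was seen mainly at 24 h. SEC31A, part of the COPII coat that carries proteins out of the endoplasmic reticulum, had a 39-base exon at 63.3, 60.4 and 60.5% at 0 h and at 79.0, 73.9 and 76.2% after drug (adjusted p = 0.00414, and 0.0261 against the 24 h control), with all drug libraries above all controls.

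The remaining called exons named by size or shortness were less even between libraries. TIAL1, an RNA-binding protein that acts on splicing and translation, had the largest difference: a 42-base non-coding exon was at 0, 32.1 and 0% at 0 h and at 82.7, 52.5 and 93.8% after drug (adjusted p = 0.0274, and 0.0556 against the 24 h control). The event held only 13.8% of TIAL1 TPM, and its call was lost without 0 h library 1 or 3 (60.3 points each) or drug library 1 or 3 (62.4 and 56.9 points). ZNF611, a zinc finger gene, was at 21.9, 58.4 and 34.1% against 69.9, 80.8 and 87.0% for a 100-base exon (adjusted p = 0.0305), but its 24 h controls were at 62.6 and 61.6%, so the difference from them was 17.1 points (adjusted p = 0.444). ERC1, a scaffold of secretion sites, had an 84-base exon at 74.7, 57.7 and 82.8% against 37.1, 38.6 and 40.7% (adjusted p = 0.0197, and 0.0945 against the 24 h control). DNALI1, an axonemal dynein light chain, had a 170-base exon listed at 100% in all 3 libraries at 0 h and at 71.1, 65.2 and 63.4% after drug (adjusted p = 0.0277, and 0.146 against the 24 h control). VPS29, a retromer subunit, had a 12-base exon at 49.7, 38.7 and 40.9% against 65.3, 55.9 and 59.5% (adjusted p = 0.0146, and 0.103 against the 24 h control). CCNL2, a cyclin linked to splicing, had a 14-base exon at 2.06, 9.07 and 5.66% against 36.8, 29.6 and 28.6% (adjusted p = 0.0465, and 0.116 against the 24 h control), and EIF4A1, a translation initiation helicase, an 18-base exon at 99.2, 100 and 100% against 77.6, 94.1 and 78.1% (adjusted p = 0.048, and 0.156 against the 24 h control), in events that held 8.26 and 4.87% of their gene's TPM. The exons of ERC1, VPS29, CCNL2 and EIF4A1 share an edge with 1, 2, 3 and 4 longer annotated exons of their genes. Of the exons printed above, those of EXOC7, APP, MYH10 and ITGA6 each share an edge with 1 other annotated exon. Those other exons have 153, 229, 30 and 47 bases. The events of MYH10, MYO6, SEC31A and ITGA6 held 66.5, 66.7, 48.1 and 95.5% of their gene's TPM. The exons of ZNF611, ERC1, DNALI1, VPS29, CCNL2 and EIF4A1 each lost their call in 3 or more of the 6 fits that left out 1 library. In those fits the differences ranged from 33.0 to 40.3 points for ZNF611, from -27.4 to -33.8 for ERC1, from -31.8 to -35.7 for DNALI1, from 14.6 to 16.1 for VPS29, from 23.5 to 27.8 for CCNL2 and from -13.6 to -16.7 for EIF4A1.

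The intron beside each exon was searched for 4 short words on the transcribed strand, 200 bases before and 200 bases after the exon. TGCATG, the word read by RBFOX proteins, stood after 10 of 58 exons with lower inclusion (17.2%) and 1 of 34 with higher inclusion (2.94%), against 575 of all 7614 tested exons (7.55%). Before the exon it stood at 2 of 58 (3.45%) with lower and 5 of 34 (14.7%) with higher inclusion, against 491 of 7614 (6.45%). Those with the word after an exon of lower inclusion included APP, BCR, C1orf52, CTNNBIP1, HMGN3, MFF, SULF2 and TIAL1. At 1 of the 10 the window runs into a longer annotated form of the exon, which holds the word. The other words were GGTGG, found before 27.6% of the lower, 32.4% of the higher and 21.8% of all exons, CTCTCT (12.1, 11.8 and 12.2%) and TGTGTG (8.62, 14.7 and 11.4%). After the exon the shares were 22.4, 26.5 and 25.2% for GGTGG, 12.1, 23.5 and 8.55% for CTCTCT, and 12.1, 11.8 and 10.4% for TGTGTG. These matches describe letters in fixed windows.

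Regulators of splicing held the highest share of called genes among the 7 lists. Of 79 genes in the list, 74 were compared and 19 had a called transcript (25.7%, against 3.3% of all tested genes), with 13 transcripts higher and 11 lower. By class, 12 of the higher and 4 of the lower transcripts were annotated as protein coding, while 7 lower and no higher transcripts were annotated as retained intron. The called transcripts of all genes leaned the same way. Among them, 174 coding transcripts were higher and 82 lower, and 9 retained-intron transcripts were higher and 35 lower. The list's median absolute difference was 3.42 points, against 3.29 for all transcripts.

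LUC7L3, a component of the U1 snRNP that recognises 5′ splice sites, had a large and even difference. ENST00000240304 was at 22.5, 18.5 and 21.7% of the gene at 0 h and at 60.9, 51.0 and 57.3% after 24 h of drug. All drug libraries were far above all 0 h libraries, and the 24 h controls stood at 23.6 and 26.7%. The mean rose from 20.9% ± 2.14 to 56.4% ± 4.99 (SD, n = 3 each), by 35.5 points and 2.29 ± 0.18 (SE) in log2 odds (adjusted p = 0.000401, and 0.00101 against the 24 h control), and was already 40.9% at 3 h and 54.6% at 6 h. A second LUC7L3 coding transcript, ENST00000393227, fell from 18.3, 24.4 and 18.8% to 7.06, 9.21 and 5.5% (adjusted p = 0.00248), while the gene went from a mean of 258.8 to 139.6 TPM. LUC7L, its paralogue, had ENST00000293872 at 6.65, 0 and 0% at 0 h and at 32.8, 24.8 and 37.2% after drug (adjusted p = 0.00874, and 0.00698 against the 24 h control, which was listed at 0). A count of 3 reads in a library would have been 0.0682 to 0.095% of LUC7L. The LUC7L retained-intron transcript ENST00000490762 fell from 31.6, 30.1 and 30.8% to 15.5, 18.5 and 19.8% (adjusted p = 0.0191), and LUC7L2, the other paralogue, had a coding transcript at 71.3, 56.0 and 66.1% against 83.8, 86.9 and 81.0% (adjusted p = 0.0147).

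CLK1, a kinase that phosphorylates SR splicing proteins, is known to keep a large intron-retaining pool. Its retained-intron transcript ENST00000473565 was at 45.4, 48.2 and 53.5% at 0 h and at 20.4, 28.6 and 24.0% after 24 h of drug. The highest drug library lay well below the lowest 0 h library, and the 24 h controls, at 51.0 and 45.8%, lay in the 0 h range. The mean fell from 49.0% ± 4.14 to 24.3% ± 4.11 (SD, n = 3 each; adjusted p = 0.00134, and 0.00429 against the 24 h control), and it was 28.4% at 3 h. The coding transcript ENST00000321356 rose from 19.3, 13.3 and 19.1% to 31.9, 34.5 and 30.3% (adjusted p = 0.0217, and 0.0789 against the 24 h control). The related kinase CLK4 had a retained-intron transcript at 27.7, 30.2 and 31.96% against 12.9, 13.7 and 9.24% (adjusted p = 0.0185), though the difference from the 24 h control did not pass (adjusted p = 0.241).

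The other called retained-intron transcripts of splicing regulators were likewise lower after drug. They and the hnRNP and SR genes after them were chosen once their values had been seen. DDX17, an RNA helicase, was at 30.8, 34.9 and 33.7% against 20.9, 21.6 and 18.9% (adjusted p = 0.0073). DDX5, its paralogue, was at 15.8, 24.0 and 20.6% against 7.94, 8.63 and 6.77% (adjusted p = 0.00604). RBM25, a U1-associated factor, was at 17.1, 25.9 and 22.1% against 10.6, 11.1 and 10.4% (adjusted p = 0.0253). In each of these 3 genes the drug libraries lay below all 0 h libraries. PTBP2, the neural polypyrimidine tract binding protein, was at 21.5, 13.2 and 10.3% against 0, 1.93 and 4.73% (adjusted p = 0.0317), with no call against the 24 h control (adjusted p = 0.336). Its retained-intron transcript is 365 bases long, within the range of the mean fragment lengths, and held only 0 to 13.88 estimated reads in the libraries compared.

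Coding transcripts of hnRNP and SR genes were also called. HNRNPDL, an hnRNP that regulates its own splicing, had ENST00000507721 at 27.0, 36.5 and 31.1% against 14.2, 14.3 and 13.5% (adjusted p = 0.00694) and ENST00000602300 at 53.3, 43.6 and 49.0% against 65.5, 65.3 and 67.6% (adjusted p = 0.00874). SRSF1, an SR protein, had ENST00000582730 at 37.1, 34.1 and 38.8% against 51.4, 51.0 and 52.6% (adjusted p = 0.00278). In both genes the drug libraries lay close together and outside the 0 h range. SFPQ, a paraspeckle protein, had a transcript annotated for nonsense-mediated decay, the pathway that degrades RNAs with an early stop codon, at 34.8, 28.2 and 30.5% against 43.8, 43.4 and 45.6% (adjusted p = 0.0137), the 1 called decay transcript in the list. TIAL1 had ENST00000436547 at 15.2, 6.78 and 5.67% against 31.0, 28.3 and 31.9% (adjusted p = 0.034) and ENST00000369086 at 17.3, 18.1 and 18.6% against 5.77, 6.5 and 5.75% (adjusted p = 0.00376). The remaining called regulators were CELF1, HNRNPH1, NUDT21, PRPF38B and RBM39, with transcripts higher by 11.4 to 16.6 points, and CPSF6, with one lower by 10.1 points. Of the list's 24 called transcripts, 18 were also called against the 24 h control, as were 135 of all 343 called transcripts. Those of the list not called against it were CLK4, PTBP2, the coding transcript of CLK1, CELF1 (limma adjusted p = 0.0543), NUDT21 (0.0702) and PRPF38B (0.0871).

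Among whole transcripts, the largest called difference was in CRTC1, a coactivator of CREB that is in no list. ENST00000594658, whose coding sequence has 1779 bases, was listed at 0% in all 3 libraries at 0 h, in both 24 h controls and in all 3 h drug libraries, and at 46.2, 27.7 and 40.8% after 24 h of drug. A count of 3 reads would have been 0.2 to 0.288% of CRTC1 at 0 h, and the group means after 6 and 12 h of drug were 8.34 and 30.01%. The difference was 38.3 points (adjusted p = 0.00553, and 0.0112 against the 24 h control). CRTC1-201 (ENST00000321949), with 1902 coding bases and a start 51929 bases away, was the transcript that fell, by 28.5 points (limma adjusted p = 0.00874). ENST00000594658 has only 35 bases that CRTC1-201 lacks, while CRTC1-201 has 4530 that ENST00000594658 lacks. Its share therefore depends on how the model split shared reads. NHP2, a protein of H/ACA small nucleolar ribonucleoproteins, had ENST00000514354 listed at 0% in all 5 control libraries and at 25.3, 30.4 and 40.6% after 24 h of drug (adjusted p = 0.0143, and 0.037 against the 24 h control), where 3 reads would have been 0.194 to 0.238% of the gene. Its means after 3, 6 and 12 h of drug were 0, 15.3 and 0%, so the order in time was uneven, and the call was lost without the second 0 h library (32.1 points) or the third drug library (27.8 points).

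ZNF480, a zinc finger protein, had its leading annotated transcript change from one with a short reading frame to one with a long one. ENST00000598016, with 495 coding bases, was at 66.4, 65.1 and 60.8% at 0 h and at 36.6, 29.9 and 26.7% after 24 h of drug. The groups lay wide apart, with the 24 h controls at 56.8 and 55.7%. The mean fell by 33.1 points (adjusted p = 0.00134, and 0.0112 against the 24 h control), while ENST00000595962, with 1605 coding bases, rose by 28.5 points and became the leading transcript. Inclusion of the 98-base exon that parts these forms fell from 64.1% ± 2.94 to 31.2% ± 5.27 (SD, n = 3 each; adjusted p = 0.00075). Of the transcripts in this event only ENST00000598016 holds the exon, so both values rest on it. It is 559 bases long, with 44.47 to 131.7 estimated reads in the libraries compared, against 4746 bases for ENST00000595962. In the alternative fits its difference in share ranged from -35.85 to -9.04 points.

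SLC19A1, the reduced folate carrier, had ENST00000417954 at 46.3, 46.7 and 55.1% at 0 h and at 23.6, 15.04 and 12.6% after drug (adjusted p = 0.00874, and 0.00712 against the 24 h control, at 62.2 and 52.3%). Its start group went from 49.4 to 17.1% of the gene (adjusted p = 0.00833), and another start group from 30.9 to 68.4% (adjusted p = 0.0367). FASTKD3, a mitochondrial RNA-binding protein, had its retained-intron transcript ENST00000513577 at 60.4, 57.6 and 65.2% against 36.5, 34.9 and 30.9% (adjusted p = 0.00526, and 0.0139 against the 24 h control). In both genes every drug library lay below every control library. TLCD5, a membrane protein, had ENST00000375095 at 23.9, 21.0 and 12.5% against 53.9, 64.96 and 44.9% (adjusted p = 0.0105, and 0.0906 against the 24 h control).

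**Figure D3:**
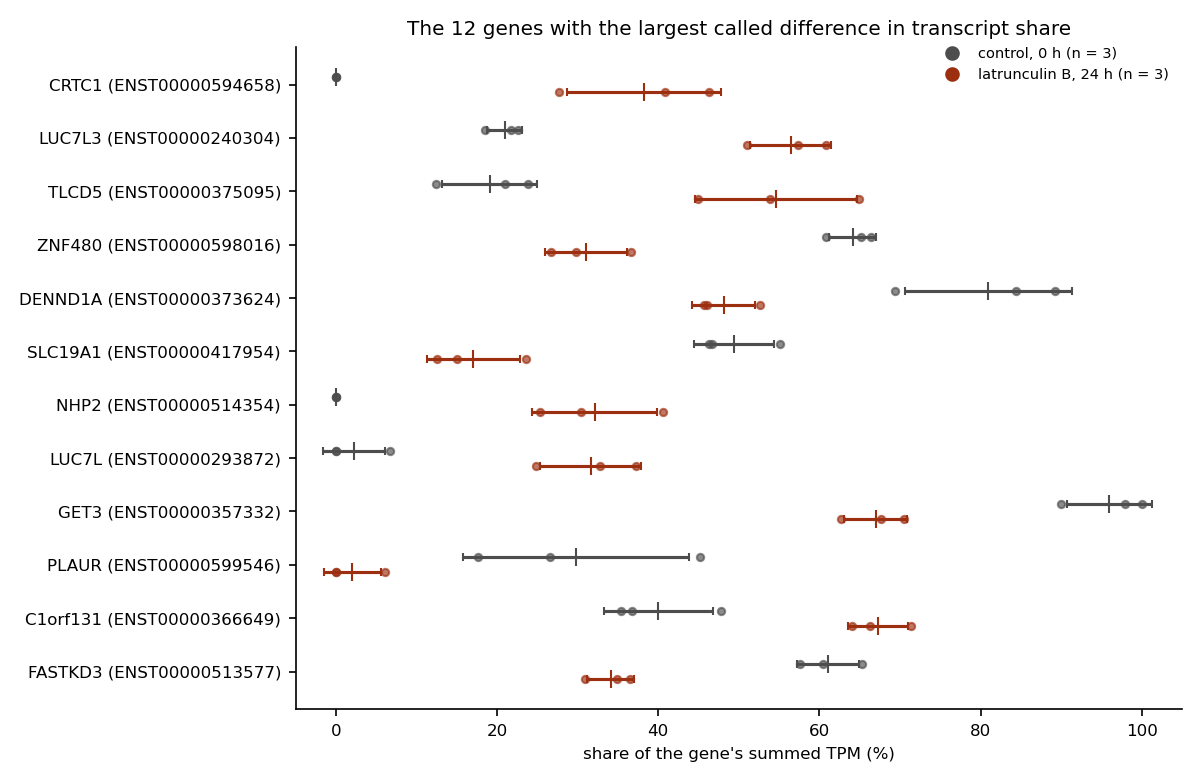
Share of the gene's TPM, in percent, held by 1 transcript in each of the 12 genes with the largest called differences, in the 3 libraries at 0 h (grey) and the 3 after 24 h of latrunculin B (red). Points are libraries, and ticks and bars are the mean ± SD. LUC7L3 ENST00000240304 lies at 18.5 to 22.5% at 0 h and at 51.0 to 60.9% after drug. A lack of overlap between the groups was a condition for choosing the 12 genes.

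Other large differences from 0 h were not called against the 24 h control. GET3, the ATPase that delivers tail-anchored proteins to the endoplasmic reticulum, had ENST00000357332 at 90.0, 97.9 and 100% at 0 h and at 67.7, 70.5 and 62.7% after drug (adjusted p = 0.0117), but the 24 h controls were at 71.9 and 73.2%, and the difference from them was 5.59 points (adjusted p = 0.883). C1orf131 had ENST00000366649 at 47.8, 36.8 and 35.4% against 66.2, 64.1 and 71.4% (limma adjusted p = 0.0235, and 0.127 against the 24 h control, at 47.1 and 46.4%). This transcript and ENST00000366651, the tested C1orf131 transcript with the largest fall, have only 3 and 5 bases that the other lacks. DENND1A, an exchange factor for RAB35, had ENST00000373624 at 84.4, 69.3 and 89.2% against 45.7, 52.6 and 46.0% (adjusted p = 0.0411, and 0.186 against the 24 h control). PLAUR, the urokinase receptor, had ENST00000599546 at 17.7, 45.2 and 26.5% against 0, 0 and 6.12% (adjusted p = 0.0429, and 0.0725 against the 24 h control). All 4 were chosen from transcripts whose groups did not overlap. The calls of C1orf131, DENND1A and PLAUR were each lost in 4 or 5 of the 6 fits with 1 library left out. Their differences there were 24.9 to 27.7 points, -28.8 to -35.1 points and -20.1 to -29.8 points.

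Signalling, metabolic and transcription factor genes were read against the 3.3% of all tested genes with a called transcript. In the Hippo and TGF-beta list 1 of 31 tested genes was called (3.23%): VGLL4, a TEAD cofactor that opposes YAP, with ENST00000430365 at 66.4, 61.1 and 61.4% against 73.9, 74.1 and 79.0% (adjusted p = 0.0336, and 0.184 against the 24 h control). In the central metabolism list 2 of 32 were called (6.25%). PDHX, the E3-binding subunit of pyruvate dehydrogenase, had ENST00000227868 at 62.8, 67.5 and 75.8% against 82.2, 81.8 and 87.9% (limma adjusted p = 0.0234, and 0.155 against the 24 h control). ACLY, ATP citrate lyase, had ENST00000352035 at 6.68, 6.8 and 16.6% against 0 in all 3 drug libraries (limma adjusted p = 0.0246, and 0.0725 against the 24 h control). Every base of ENST00000352035 also lies in ENST00000590151, the tested ACLY transcript with the largest rise, which has 16 bases of its own. The calls of VGLL4 and ACLY were lost in 5 of the 6 fits with 1 library left out (11 to 13.6 and -6.74 to -11.6 points), and that of PDHX without the first or second 0 h library or the third drug library (12.3, 14.7 and 13.3 points). PKM, pyruvate kinase, was not called (3.10 points higher for ENST00000335181, adjusted p = 0.394). Among 26 tested pancreatic and endocrine transcription factors, none had a called transcript by limma (1 transcript had an adjusted p under 0.05, below 10 points), and FOXP1 and MEIS2 differed by 1.44 and 2.67 points (adjusted p = 0.836 and 0.501). BPTF, a chromatin remodeller in that list, had a 189-base exon at 69.1, 68.3 and 71.4% against 57.5, 59.2 and 59.6% (adjusted p = 0.0207, and 0.306 against the 24 h control), which was not called without the third 0 h library or any 1 drug library (9.91 to 11.2 points lower). FGFR2, a growth factor receptor, had a 145-base exon at 53.3, 51.9 and 53.4% against 63.6, 57.3 and 59.8%, which did not pass (adjusted p = 0.0749).

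Starts and ends of transcripts were compared after joining those within 100 bases of each other. Of 17867 start groups tested, 188 (1.05%) were called in 148 genes (2.25%), 114 higher (0.638%) and 74 lower (0.414%), and of 23291 end groups 280 (1.2%) were called in 225 genes (2.88%), 166 higher (0.713%) and 114 lower (0.489%). Against the 24 h control 112 start groups (0.627%) and 155 end groups (0.665%) were called, and between the 24 h and 0 h controls 2 start groups (0.0112%) and 3 end groups (0.0129%). In 54 genes both a rising and a falling transcript were called, and these pairs differed at the start only in 4 genes, at the end only in 12, at both in 27 and at neither in 11. Both transcripts were annotated as protein coding in 32 of the 54 pairs, of which 7 had the same annotated coding sequence. In 18 a transcript annotated as protein coding rose while one of another annotated type fell, against 2 the other way. The other types include decay transcripts, which can hold a coding sequence. The leading transcript of the gene differed between the group means in 851 genes, in 89 of them in all 6 libraries, and in 14 with both transcripts called, among them CLK1, ITGA6, LUC7L, TIAL1 and ZNF480.

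Summed over the 9481 genes, retained-intron transcripts took a smaller part after drug. They held 7.605, 9.441 and 8.626% of the genes' TPM at 0 h and 7.237, 7.203 and 7.012% after 24 h of drug. The drug libraries were all below the 0 h libraries, but the lowest 0 h library was close to the highest drug library. The means were 8.557% ± 0.92 and 7.151% ± 0.121 (SD, n = 3 each; two-sided exact permutation p = 0.1, the smallest that 3 against 3 can give), and the 24 h controls were at 9.616 and 8.021%. Protein coding transcripts went from 83.03, 80.75 and 81.81% to 83.51, 83.66 and 83.9% (exact permutation p = 0.1). Decay transcripts were at 3.974% and 3.904%, a difference whose sign changed to 0.01201 points higher when estimated reads replaced TPM. Of the 4849 tested retained-intron transcripts, 9 were called higher (0.186%) and 35 lower (0.722%), against 0.681% and 0.442% of all tested transcripts. Of the 19716 coding transcripts 174 were called higher (0.883%) and 82 lower (0.416%).

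**Figure D4:**
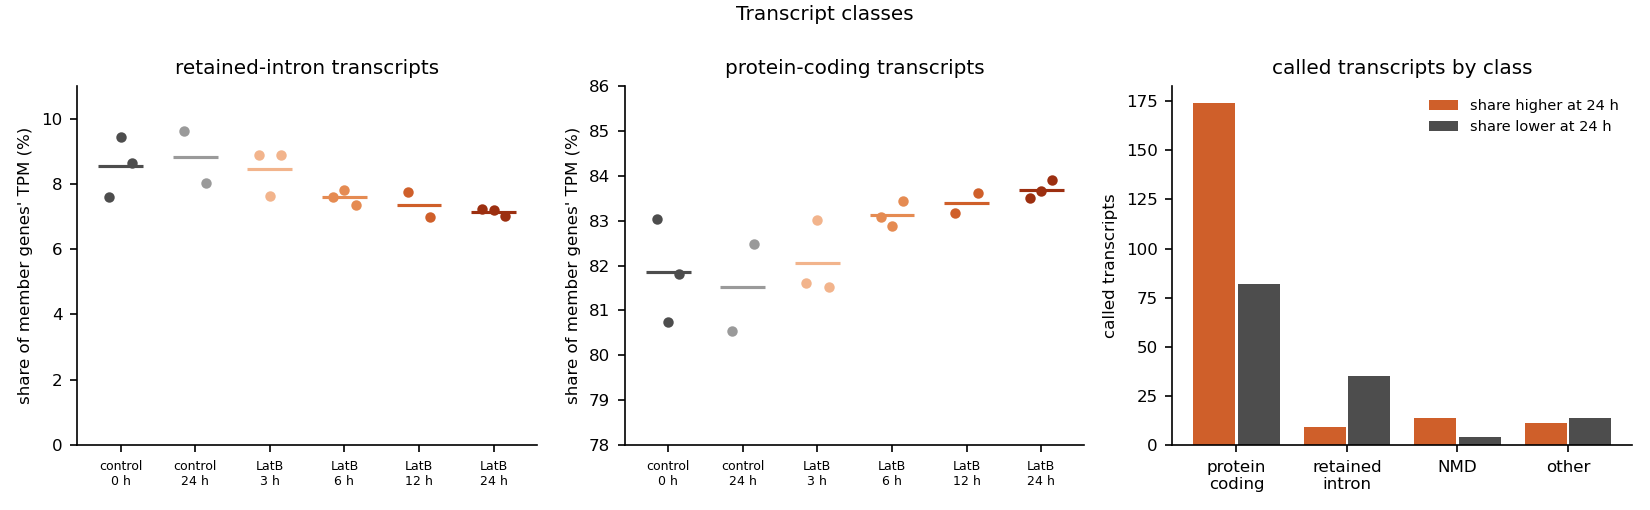
Left and middle, share of the 9481 genes' TPM, in percent, held by retained-intron and protein-coding transcripts in every library by group, where points are libraries, horizontal lines are group means and the middle axis does not start at 0. Right, number of transcripts called higher or lower after 24 h of drug by class (NMD, nonsense-mediated decay). Retained-intron transcripts lie between 7.605 and 9.441% at 0 h, between 8.021 and 9.616% in the 24 h control and between 7.012 and 7.237% after 24 h of latrunculin B, and 35 of them were called lower against 9 higher.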

How the data were processed

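Poly(A) RNA of 16 libraries was analysed from per-library Salmon tables, for which the deposited values are the authors' TPM per transcript and estimated counts. The submitters' processing notes name Salmon 1.3.0, DESeq2 and hg38, while the study's methods describe another counting route, so index and options are not given in the sources used here. The whole-series table that was deposited, with 16 per-sample columns of counts, was not used. Of 177456 transcript identifiers, 165533 matched GENCODE release 44 without version, 13003 of them at another length, and unmatched transcripts held 2.92 to 3.17% of reads.

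The shares, with 0.5 TPM added to the transcript and to the rest of its gene, were fitted as log2 odds by limma 3.58.1 (R 4.3.3) with 1 coefficient per group, an abundance trend and robust variances, and p-values were adjusted by Benjamini-Hochberg over all tested features. Classes were compared by exact permutation (Python 3.11.15, numpy 2.4.6). On simulated shifts in 30675 transcripts the fit recovered 42% of 25-point shifts and 5.53% of 15-point shifts, with 7.76% false calls. Estimated counts are not molecules, and the limits of 3 reads cover counting error only. Reads shared between transcripts are split by a model, so shares of similar transcripts are uncertain together.

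The genes and lists were chosen with earlier results of these data known. Genes were named as the 12 with the largest called transcript difference, the 6 largest called exons and called exons of up to 30 bases, up to 4 per list, and 11 genes with well-known isoforms, each without overlap between groups and with the same sign against the 24 h control for the first 2 kinds. PDK4 had no tested transcript. Alternatives left out libraries or changed the pseudocount, filters, start and end joining, covariates and tools (diffSpliceDGE of edgeR 4.0.16 on rounded estimated counts, and diffSplice of limma). Results for some genes that met these rules are not reported here.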

Additional observations from a re-analysis of the deposited data

How the results depend on the processing

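Against 343 called transcripts between 24 h of drug and 0 h, 79 were called with only the 6 libraries compared, 12 with fragment length as a covariate, 53 at a limit of 20 points, 59 with edgeR's diffSpliceDGE and 830 with limma's diffSplice after voom, and leaving out 1 library gave 123 to 398 (140 and 147 without 0 h library 2 or 3, and 184, 224 and 123 without drug library 1, 2 or 3). Against 230 for drug versus the 24 h control, only the compared libraries gave 24, and leaving out 1 gave 38 (first 24 h control library) to 200. Against 4 for the 24 h versus the 0 h control, a pseudocount of 0.1 TPM gave 10, only the compared libraries 1 and leaving out 1 library 5 to 34. Against 92 exons, only the compared libraries gave 31, and 2 alternatives chosen after seeing the data gave 55 (transcripts of unchanged length) and 9 (fragment length as a covariate), with 41 to 93 when 1 library was left out. Only the compared libraries gave 17 of 188 start groups and 47 of 280 end groups, and leaving out 1 library 55 to 258 and 114 to 307. The difference in decay transcripts reversed to 0.01201 points on estimated counts and, in an alternative chosen after seeing the data, to 0.08776 as a mean over genes.

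The same replicate number did not pair libraries: deviations of same-numbered libraries correlated at -0.0127, 0.00407 and -0.0133 over transcripts. With a replicate block the counts were 232 transcripts against 0 h, 70 against the 24 h control, 60 exons, 115 start groups and 176 end groups.

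The APP, EXOC7, SPTAN1 and ZNF480 exons and the CRTC1 and LUC7L3 transcripts were called in every alternative that tested them, other than the covariate. With fragment length as a covariate, limma still called the exons of APP (adjusted p = 0.00581), EXOC7 (0.00581), SPTAN1 (0.0421) and ZNF480 (0.019). The transcripts of LUC7L3 (limma adjusted p = 0.0157) and ZNF480 (0.0479) were also still called with that covariate. The exons of SPTAN1, MYO6, ITGA6, ERC1, VPS29 and BPTF were not tested in the alternative with only transcripts of unchanged length. Their events use transcripts whose length differs between the deposited values and the annotation that defines the exon. Of the 20 named called transcripts 5 and of the 18 named called exons 6 were called when only the compared libraries were fitted. Depth limits low shares, and a gene at 5 TPM gives few reads per transcript.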

Other observations

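Some exons with small spread lie outside the genes chosen for naming, and they were picked after their values were seen. IGF2, a fetal growth factor, had a 165-base exon at 49.1, 47.0 and 45.1% inclusion at 0 h and at 65.8, 67.1 and 67.5% after 24 h of drug. All drug libraries lay above all 0 h libraries (limma adjusted p = 1.73e-05, and 0.000188 against the 24 h control). G3BP1, a stress granule protein, had a 110-base exon at 42.3, 43.5 and 42.1% against 24.8, 26.5 and 25.1% (adjusted p = 5.07e-05), with replicates close together in both groups. HMGN3, a nucleosome-binding protein, had a 93-base exon at 22.5, 23.1 and 19.0% against 4.35, 6.71 and 4.19% (adjusted p = 0.000248), and ME2, the mitochondrial malic enzyme, a 114-base exon at 88.0, 90.6 and 90.7% against 100% in all 3 drug libraries (adjusted p = 0.00143). ACTN1, an actin crosslinker, had an 81-base exon at 84.9, 84.6 and 87.5% against 97.3, 98.8 and 98.0% (adjusted p = 0.0305, and 0.0692 against the 24 h control), the one called exon of the actin list that rose.

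Starts and ends of further transcripts were called, and these too were picked after their values were seen. ACSM3, a medium-chain acyl-CoA ligase, had an end group go from a mean of 36.6 to 61.9% of the gene (adjusted p = 0.001), ZNF525 from 43.4 to 79.8% (adjusted p = 0.0173, and 0.0918 against the 24 h control), and MYO6 from 25.8 to 13.1% (adjusted p = 0.00974). VMP1, an autophagy protein, had one start group go from 56.2 to 31.6% (adjusted p = 0.0058) and another from 5.4 to 28.1% (adjusted p = 0.0365).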
